A study of Mus musculus with 6 samples.

Results

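Well-expressed protein-coding genes that were strongly lost from the neonatal right ventricle (RV) after pulmonary artery banding (PAB) are described here. They were chosen by their measured values: a sham mean of at least 300 normalized reads and a PAB mean of at most 0.4 of it, without 7 named genes and without symbols beginning with Kcn, Klh, Gpr or Slc. The rule gave 43 of the 617 listed genes, or 43 of the 528 listed protein-coding genes. A difference between sham and PAB in these genes is therefore a description of the choice and was not tested.

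PAB ties a suture around the pulmonary artery and so raises the load on the RV. Sham-operated pups went through the surgery with no band placed. Wild-type (WT) mice of strain C57/BL6J had either operation at postnatal day 1, and RV tissue was taken at postnatal day 7. RNA was sequenced in 3 sham and 3 PAB libraries, and it is not stated whether a library is the RV of 1 mouse, so an SD or p-value measures the spread between these libraries, which may be technical. A normalized read, a unit inferred from the values, is a read count divided by 1 size factor per library, the relative depth, which ranged from 0.939 (PAB replicate 1) to 1.07 (sham replicate 2). Only selected genes are listed, so the total depth is unknown. All 617 listed genes differed at least 2-fold between the group means.

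A working heart muscle cell couples electrical excitation to calcium release and contraction, and ion channels and receptors for catecholamines and peptides set how strongly it does so. Around birth these cells also turn from glucose and lactate toward fatty acids as fuel. Matrix and secreted proteins from muscle, stromal and vascular cells surround them. In bulk tissue, fewer cells of a type and less RNA per cell cannot be told apart.

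Together the 43 genes held 46701, 45875 and 47211 normalized reads in sham replicates 1, 2 and 3 and 12362, 15712 and 18168 in PAB replicates 1, 2 and 3. The PAB mean of this sum, 15414 ± 2910 (SD, n = 3), was 33.1% of the sham mean of 46595 ± 674 (SD, n = 3). The sham sums lay close together, and the PAB sums were spread more widely, with replicate 1 lowest. Single genes kept between 12.5% (Clec3b) and 39.8% (Rgs2) of their sham mean, with a median of 33.4%. Of the 43 genes, 7 kept at most 25%, 18 kept more than 25% and at most 35%, and 18 kept more than 35%. The median log2 difference on the log2(value + 1) scale was -1.58, beside -1.32 over the 216 other listed protein-coding genes lower in PAB. All 43 had each PAB value below each sham value, beside 52.5% of all listed genes, and limma called all 43 lower, beside 53.0%. Those shares include the genes higher in PAB. Of the 216 other listed protein-coding genes lower in PAB, 215 had each PAB value below each sham value, and limma called all 216 lower. The rule used this contrast, so nothing is read from either count of the 43. Over all listed genes limma called 327 lower and 290 higher in PAB, and 188 lower and 290 higher once each library was rescaled by its median ratio across these same genes. The listed genes are a selection of changed genes, and this rescaling raised PAB relative to sham by 0.594 log2 units. Under that scaling the median log2 difference of the 43 was -0.986, and 9 genes instead of 43 passed the rule. Limma then called 42 of the 43 lower, among the 188 listed genes called lower. In 41 each PAB value was below each sham value, a count without its share over all listed genes under that scaling. The 43 were chosen on this contrast, so nothing is read from these counts either.

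**Figure D1:**
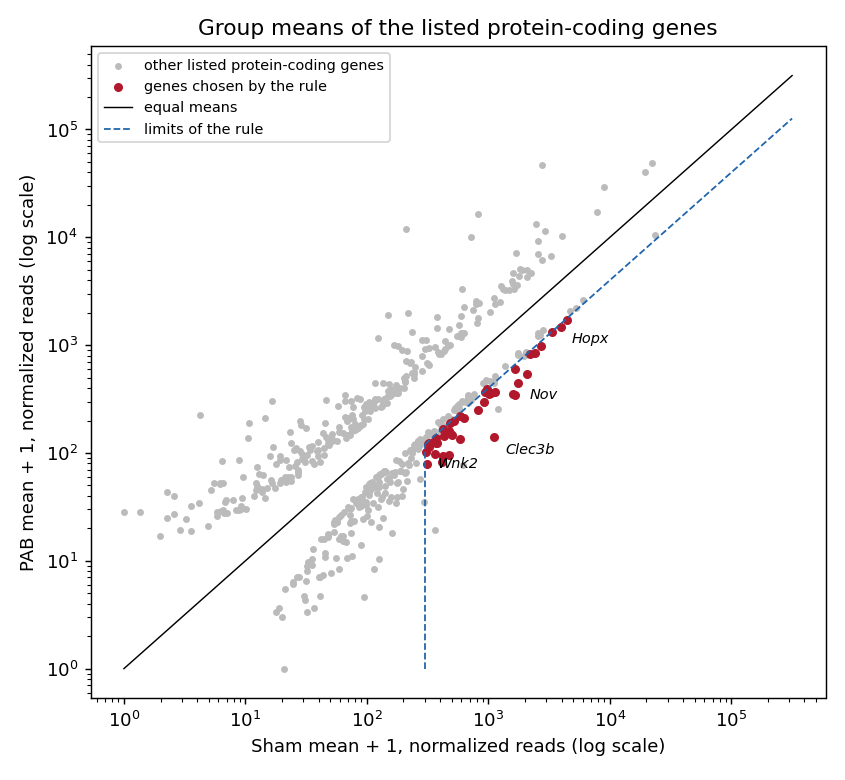
Sham mean against PAB mean, each plus 1 normalized read on log axes, for the 528 listed protein-coding genes. The 43 red points are the genes chosen by the rule, whose limits are the dashed lines; Clec3b lies farthest below the ratio limit among them, at 12.5% of its sham mean.

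The values at the limits show how sharp the choice was. Just inside the ratio limit were Rgs2, Echdc2 and Hrc at 39.8%, 39.5% and 39.3% of their sham means, and just outside it, among genes not left out by name, were Dhrs7c, Ybx2 and Tcea3 at ratios of 0.401, 0.4014 and 0.4021. Just inside the limit on the sham mean were Wnk2, Rgs6 and Rpl3l at 307, 309.6 and 319 normalized reads, and just outside it were Whrn, Rph3al and Cd1d1 at 275, 252 and 229. Of 46 genes past both limits, Aqp4, Efnb3 and Pla2g5 were left out by name.

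Of the 43 genes, 41 were sorted by known function after their values had been seen, into 12 genes of excitability, calcium and G protein signalling, 8 of metabolism, 11 of gene regulation and intracellular muscle proteins, and 10 of secreted, matrix and adhesion proteins. The median percent of the sham mean kept in PAB was 33.8%, 29.8%, 36.8% and 31.9% in these groups, in that order. The groups were not tested against each other.

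Among the genes of excitability and calcium handling, Hrc (chr7:45335290-45338974), a calcium-binding protein of the sarcoplasmic reticulum, measured 3209.9, 3003 and 3815 in sham replicates 1, 2 and 3 and 1081, 1487 and 1371 in PAB replicates 1, 2 and 3. Cacna1g (chr11:94408391-94474198), the pore of a T-type calcium channel, measured 1192, 988 and 965 in the sham libraries and 400.4, 351 and 323 in the PAB libraries. For Hrc replicate 1 was the lowest PAB library, whereas for Cacna1g it was the highest, and neither gene's groups overlapped. Rnf207, a RING finger protein known to affect cardiac repolarization, measured 2667, 2868 and 1777 in the sham libraries and 605, 721 and 1214 in the PAB libraries. Its sham replicate 3 was the lowest sham library and its PAB replicate 3 the highest PAB library, so the groups came closer than for Hrc.

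Several genes of receptor signalling were lost alongside. Adra1b, an alpha-adrenergic receptor that couples to Gq, measured 539, 470.4 and 883 in the sham libraries and 282, 172 and 178 in the PAB libraries, and Rgs2, which ends Gq signals, measured 768, 856 and 1306 in the sham libraries and 305, 474 and 387 in the PAB libraries. In both genes sham replicate 3 was well above the other sham libraries; Adra1b was highest in PAB replicate 1, unlike most of the 43 genes. Ramp1, which makes the calcitonin receptor-like receptor respond to the peptide CGRP, measured 564, 603 and 580.0 in the sham libraries and 76.7, 112 and 216 in the PAB libraries. Rgs6, which ends Gi and Go signals, measured 318, 331 and 280.0 in the sham libraries and 60.7, 60.5 and 113 in the PAB libraries. Ramp1 kept 23.1% and Rgs6 25.2% of the sham mean, and in both the PAB replicate 3 value stood above the other PAB libraries.

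Mylk4, a kinase of the myosin light chain kinase family, measured 446, 425 and 376 in the sham libraries and 49, 71.4 and 126 in the PAB libraries. It kept 19.8% of its sham mean, the lowest share among the 12 genes, and every PAB value was below every sham value. Pcp4l1, a small protein with a calmodulin-binding motif, measured 2230.1, 2000.3 and 2326 in the sham libraries and 703, 752 and 1007 in the PAB libraries. Crhr2, a receptor for urocortins, measured 561, 504 and 366 in the sham libraries and 133, 141 and 205 in the PAB libraries. Sham replicate 3 was its lowest sham library. Lgr6, a receptor for R-spondins, averaged 484 ± 26.3 in sham and 189.6 ± 26.1 in PAB (SD, n = 3 each). Wnk2, a kinase of the WNK family, averaged 307 ± 18 in sham and 101 ± 24.8 in PAB. Crhr2 varied more between sham libraries than Lgr6 or Wnk2, and in Wnk2 the lowest PAB value was in replicate 3.

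The metabolic genes included enzymes of lipid and sugar metabolism. Scd4 (chr19:44333092-44346743), a stearoyl-CoA desaturase of the heart, measured 1443, 1549 and 1758 in sham replicates 1, 2 and 3 and 312, 288 and 451 in PAB replicates 1, 2 and 3. Its sham replicate 3 was highest and its PAB replicate 2 lowest, and it kept 22.1% of its sham mean. Fitm1, which helps lipid droplets form at the endoplasmic reticulum, measured 2205, 2125 and 1949 in the sham libraries and 339, 573 and 713 in the PAB libraries. Ucp3, a carrier of the inner mitochondrial membrane, measured 877, 1085 and 1024 in the sham libraries and 326, 332 and 439 in the PAB libraries. Fitm1 kept 25.9% and was spread over the PAB libraries, while Ucp3 kept 36.8% with replicates 1 and 2 almost equal.

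Fbp2, the muscle form of fructose bisphosphatase, measured 368, 391 and 511 in the sham libraries and 71.4, 94.2 and 110.3 in the PAB libraries. Its lowest sham value was 3.34 times its highest PAB value. Stard10, a lipid transfer protein, averaged 364 ± 77.6 in sham and 96.5 ± 39.7 in PAB, and Carns1, which makes carnosine, averaged 1005 ± 181 in sham and 352 ± 146 in PAB. Echdc2, a protein with an enoyl-CoA hydratase domain, averaged 418 ± 63.8 in sham and 165 ± 41.4 in PAB, and Mpped2, a metallophosphodiesterase, averaged 427 ± 12.6 in sham and 141 ± 23.6 in PAB. Mpped2 had the smallest spread between sham libraries of these 4 genes.

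Among the regulators and intracellular muscle proteins, Hopx (chr5:77086988-77115121), a small homeodomain protein that does not bind DNA and modulates serum response factor, measured 4019.5, 3553 and 4299 in sham replicates 1, 2 and 3 and 1361, 1786 and 1254 in PAB replicates 1, 2 and 3. Its lowest PAB library was replicate 3 and its highest replicate 2; replicate 3 was lowest in 3 of the 43 genes. Tppp3, a tubulin-binding protein, measured 1194, 1190.5 and 1031 in the sham libraries and 213, 396 and 487 in the PAB libraries. The other 9 genes had sham means between 319 and 942 normalized reads. They were Rtn2 (a reticulon of the endoplasmic reticulum), Mov10l1 (an RNA helicase), Ttc12, Asb14 (of a family that recruits substrates to ubiquitin ligases), Trim7 (a ubiquitin ligase), Cited1 (a transcriptional coactivator), Ky (a muscle peptidase-like protein), Snrpf (a core protein of the spliceosome) and Rpl3l (the striated muscle paralog of a ribosomal protein). Of these 9, Asb14 kept the least, 29.1%, and Rtn2 the most, 38.5%.

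Of these 9 genes Rtn2, Ttc12, Cited1 and Ky were the steadiest in sham, with coefficients of variation (CV) of 1.6%, 1.9%, 3.08% and 3.22%. Rtn2 averaged 942 ± 15.1 in sham and 363 ± 52.2 in PAB, and Ttc12 averaged 519 ± 9.88 in sham and 198 ± 23.5 in PAB. Mov10l1 averaged 914 ± 86 in sham and 299 ± 21.3 in PAB and had a CV of 7.12% in PAB, so the loss was nearly the same in its 3 PAB libraries.

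The secreted, matrix and adhesion genes held the gene that kept the smallest share of its sham mean. Clec3b (chr9:123150946-123157432), which encodes the plasminogen-binding protein tetranectin, measured 1081, 1121 and 1141 in sham replicates 1, 2 and 3 and 54.3, 195 and 167 in PAB replicates 1, 2 and 3. It kept 12.5%, its lowest sham value was 5.53 times its highest PAB value, and PAB replicate 1 was far below the other PAB libraries. Nov (chr15:54745702-54754039), a matricellular protein of the CCN family, measured 1858, 1622 and 1819.6 in sham replicates 1, 2 and 3 and 137, 502 and 707 in PAB replicates 1, 2 and 3. With a CV of 64.3% in PAB it varied most of the 43 genes, and its PAB values covered a 5.15-fold range while the sham values were close. Il15, a cytokine made in muscle, measured 265, 349 and 351 in the sham libraries and 105, 112 and 120.2 in the PAB libraries. Its CV of 6.57% in PAB was the smallest of the 43.

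Emilin2, an elastic fibre-associated glycoprotein, measured 2762, 2508 and 2831 in the sham libraries and 840.3, 1026 and 1063 in the PAB libraries. Nrtn, a ligand of the GDNF family, measured 1782, 1924 and 1219 in the sham libraries and 494, 704 and 583 in the PAB libraries. The PAB values of Emilin2 were close to each other, whereas Nrtn was lowest among its sham libraries in replicate 3. Lrrc4b, a synaptic adhesion protein, measured 418, 389 and 617 in the sham libraries and 77.7, 90.2 and 115 in the PAB libraries. It kept 19.9% of its sham mean, and sham replicate 3 stood above the others. Cadm4, a cell adhesion molecule, averaged 486 ± 161 in sham and 152 ± 32.6 in PAB.

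Vtn, Lgals4 and Sned1 were also chosen after their values were seen, for a PAB replicate 3 library that lay toward sham, as in Rnf207. In Vtn sham replicate 3 was the highest sham library, unlike in Rnf207. Vtn (vitronectin) measured 557, 575 and 617 in the sham libraries and 111, 182 and 363 in the PAB libraries, and PAB replicate 3 kept 62.2% of the sham mean where replicate 1 kept 19%. Lgals4, a galectin, measured 976, 952 and 523 in the sham libraries and 118, 233 and 396 in the PAB libraries. Sned1, a matrix protein, measured 487, 423 and 219 in the sham libraries and 78.8, 92.2 and 197 in the PAB libraries. In Lgals4 and Sned1 sham replicate 3 was the lowest sham library and PAB replicate 3 the highest PAB library, and in Sned1 the lowest sham value was 1.11 times the highest PAB value, the narrowest gap of the 43 genes.

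**Figure D2:**
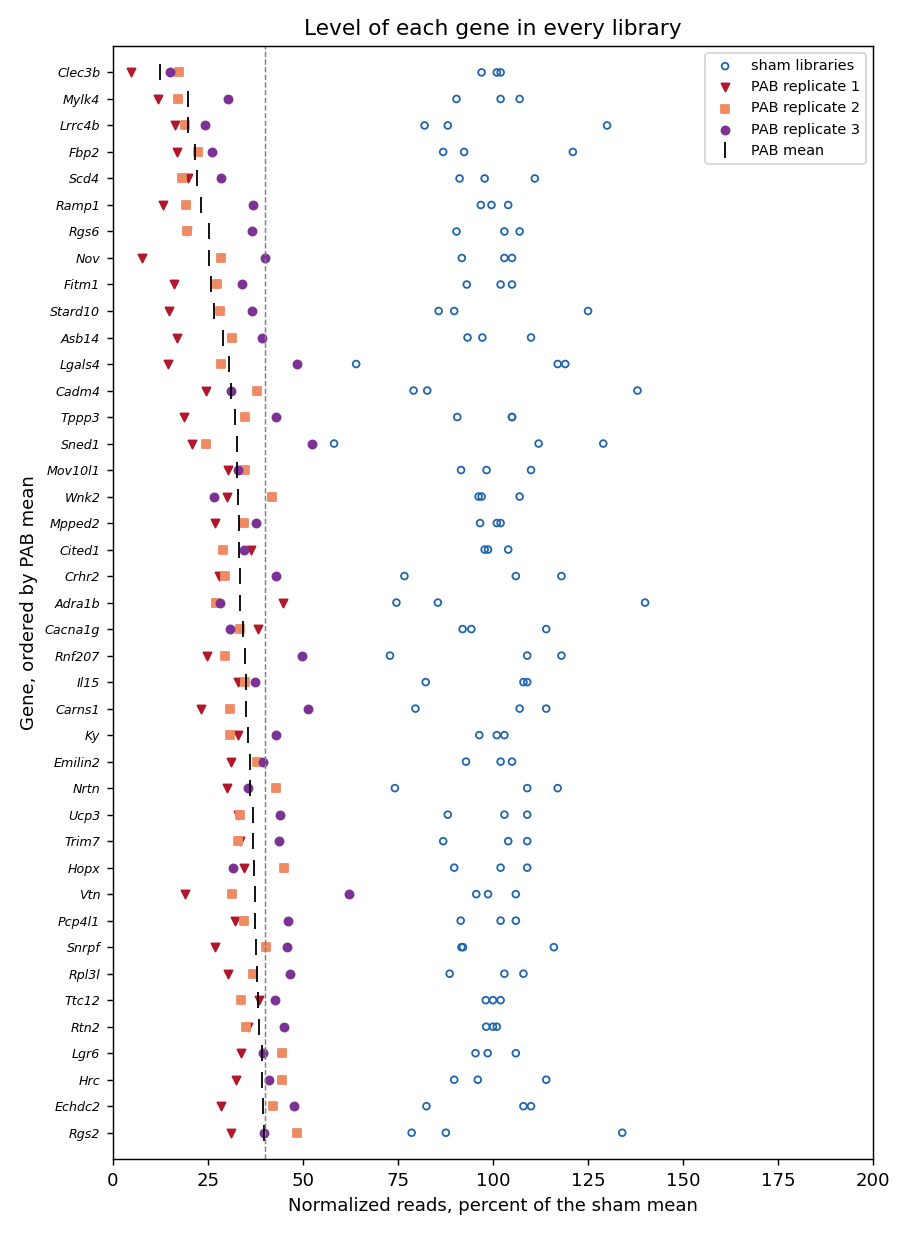
Normalized reads of 41 of the 43 genes in each library as a percent of the sham mean, with the genes ordered by their PAB mean, the limit of the rule as a dashed line and the PAB mean as a bar. PAB replicate 1 (triangles) is the lowest PAB library in 30 of them, and Sned1 and Lgals4 show the sham libraries nearest to PAB.

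The PAB libraries were not equally low, which the rule, using only their mean, did not fix. The lowest PAB value was in replicate 1 for 31 genes, in replicate 2 for 9 and in replicate 3 for 3. The highest was in replicate 3 for 31 of the 43, as for 129 of the 216 other listed protein-coding genes lower in PAB. The median percent of the sham mean was 27.9% in PAB replicate 1, 33% in replicate 2 and 39.4% in replicate 3. Replicate 1 was also lowest in 122 of the 216 other listed protein-coding genes lower in PAB (56.5%), beside 72.1% of the 43. Among the 55 of those others with a sham mean of at least 300, replicate 3 was highest in 41 and replicate 1 lowest in 33 (60%). All 10 secreted, matrix and adhesion genes of the 43 were lowest in replicate 1, beside 8 of 12 genes of excitability and signalling, 7 of 8 metabolic genes and 5 of 11 regulators and intracellular muscle proteins. When each PAB library was divided by its own median over those 216 other genes, an alternative added after seeing the data, 20 of the 43 were lowest in replicate 1.

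The same library stood apart in the opposite direction among the stress genes of heart muscle. Nppa, which encodes atrial natriuretic peptide, measured 238, 193 and 192 in the sham libraries and 21964, 9218 and 4995 in the PAB libraries. Nppb, which encodes the related B-type peptide, measured 2802, 2235 and 2318 in the sham libraries and 17262, 11468 and 11519 in the PAB libraries, and Acta1, the skeletal form of alpha-actin, measured 2978, 2462 and 2917 in the sham libraries and 61076, 34096 and 44652 in the PAB libraries. Each was highest in PAB replicate 1, as were 241 of the 269 listed protein-coding genes higher in PAB. The part of these differences between PAB libraries in the loss of the 43 genes was not tested.

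Libraries also differed within groups to different degrees. The median CV over the 43 genes was 10.1% in sham and 21.8% in PAB, and the CV was larger in PAB in 35 of 43. Over the 55 other listed protein-coding genes lower in PAB with a sham mean of at least 300 the medians were 11.6% and 20.7%. In 14 of the 43 genes the highest PAB value was at least 2 times the lowest, while in sham this held for 1, Sned1. In 9 genes the highest sham value was at least 1.5 times the lowest; sham replicate 3 was the library farthest from the sham mean in all 9, above the others in 4 and below them in 5.

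Per length, the order of the levels differed from that of the reads. Hopx was highest, at 2610.2 in sham and 968 in PAB normalized reads per kb, followed in sham by Fitm1 at 2155 in sham and 558 in PAB and Nrtn at 1604 in sham and 580.5 in PAB. The lowest level per length was that of Rgs6, at 30.9 in sham and 7.8 in PAB. Clec3b, with 1123 in sham and 140.0 in PAB, ranked 6 of 43 per length in sham and 11 in PAB. The median over the 43 genes was 218.5 normalized reads per kb in sham and 72.2 in PAB. The deposited gene lengths, which are shorter than the spans of the genes on the chromosome, were between 861 and 10137 bases (median 3135). The median was 3483 over the other listed protein-coding genes lower in PAB. Over the 55 of those with a sham mean of at least 300 it was 2472, so the direction of the difference depended on the genes compared.

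**Figure D3:**
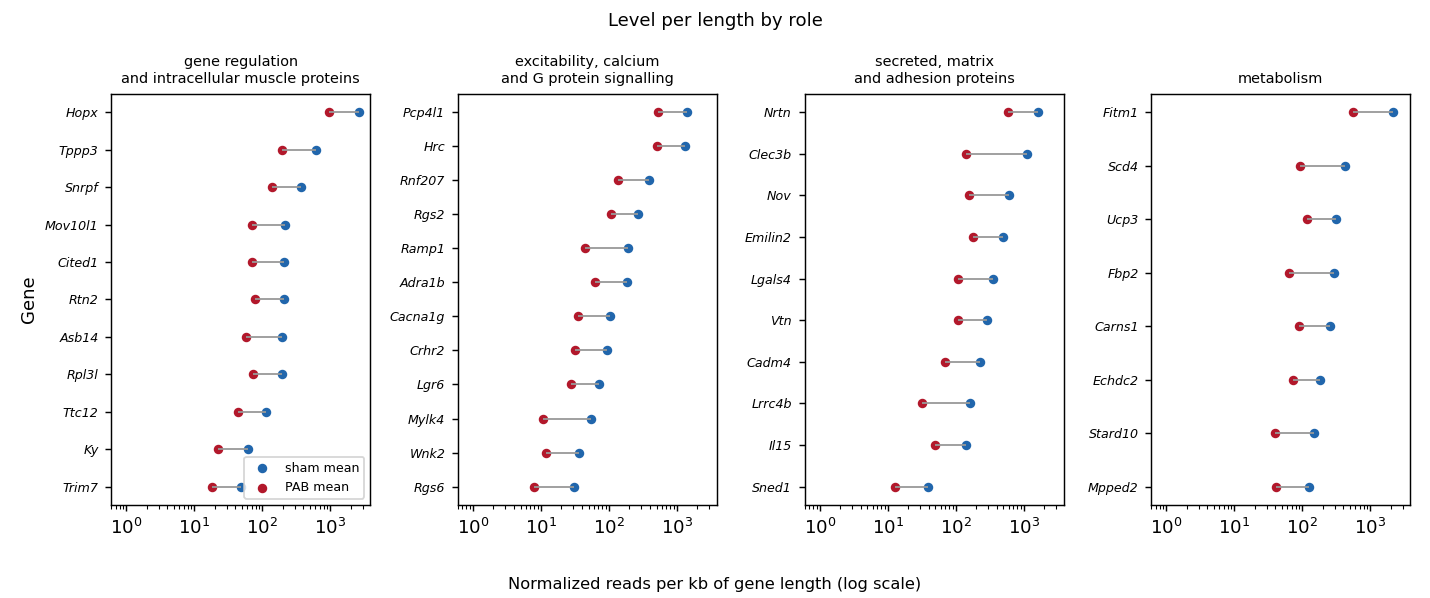
Sham mean and PAB mean of 41 of the 43 genes in normalized reads per kb of deposited gene length on log axes, in 4 panels by role. Each line joins the means of 1 gene; Hopx is highest at 2610.2 in sham, and the line of Clec3b is the longest.

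Because the rule bounds the share each gene kept, the reads lost follow the sham level. The mean loss of the 43 genes summed to 31182 normalized reads per library, and the 10 genes that lost the most held 55.6% of it and 56.1% of the sham reads of the 43. Hopx, Hrc, Emilin2, Rnf207, Fitm1, Pcp4l1, Nov and Scd4 were among them.

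Lists of genes by function placed 9 of the 43. Of 42 genes of fatty acid uptake and oxidation, 4 were listed and all 4 were lower in PAB, among them Ucp3. Of 42 genes of calcium handling, 9 were listed and 8 were lower, with Cacna1g, Hrc, Adra1b and Rgs2 among the 43; the exception was Casq1. Of 40 genes of glucose and glycogen metabolism, 8 were listed, 4 lower (Fbp2 among them) and 4 higher. Of 58 sarcomere genes, 11 were listed, 5 lower (Mylk4 among them) and 6 higher. Of 33 cardiomyocyte transcription factors, 7 were listed and 5 lower, Hopx being the most abundant. The other lists by function held none of the 43; in those with at least 2 listed genes, all 5 of sodium and pacemaker channels and gap junctions and both of the circadian clock were lower, both glucocorticoid-responsive genes were higher, and of 4 detoxification and redox enzymes 1 was lower and 3 were higher. Over all listed protein-coding genes 259 were lower and 269 higher.

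Markers of cell types gave mixed directions. Of 12 atrial markers 3 were listed, 2 lower (Stard10 and Tbx5) and Nppa higher, and their sum was 716, 811 and 764.5 in sham and 22119, 9383 and 5199 in PAB. Of 12 conduction system markers 3 were listed (Cacna1g, Hcn4 and Ntm), all lower, with a sum of 1299, 1171 and 1139 in sham and 428, 411 and 372.5 in PAB, mostly Cacna1g. Of 14 smooth muscle and pericyte markers 3 were listed, Vtn lower and Des and Cnn1 higher; their sum, mostly Des, was 19599, 19929 and 20502 in sham and 57227, 36762 and 27881 in PAB. Of 16 fibroblast markers only Dpt was listed, at 4720.3, 4759 and 4649 in the sham libraries and 1487, 2281 and 2511 in the PAB libraries. Of 22 endothelial and endocardial markers 3 were listed, Flt1 and Vwf higher and Apln lower, and of 21 macrophage and other immune markers only C1qa, lower. Of 12 neuronal and Schwann cell markers only Dbh was listed, at 122, 151 and 99.6 in the sham libraries and 8.52, 5.95 and 13.9 in the PAB libraries, or 7.62% of its sham mean. Of 11 epicardial and mesothelial markers 3 were listed, Krt8 and Krt18 higher and Krt7 lower, with a sum of 506, 439.5 and 507.6 in sham and 1611, 1112 and 1167 in PAB, mostly Krt18 in PAB. Of 21 skeletal muscle markers 4 were listed, Myl1 and Tnni2 lower and Acta1 and Casq1 higher; of 12 adipocyte markers only Pparg, higher; and of 10 erythroid markers 0. The part of other cell types in the loss of the 43 genes was not tested, and markers outside the listed genes were not analysed here.

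By position, 7 of the 43 genes lay on chromosome 7 (Rtn2, Cadm4, Lgals4, Lrrc4b, Hrc, Ucp3 and Stard10) and 6 on chromosome 1, or 16.3% and 14%, beside 6.25% and 8.33% of the listed protein-coding genes. No other chromosome held as many of the 43, these numbers are small, and position was not tested. The nearest neighbours were Ucp3 and Stard10, 0.831 megabases apart. All 43 had the coordinates of the GENCODE annotation of GRCm38 (mm10).

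Some of these genes share sequence with others, and whether the reads were counted by strand is not stated. Exons of 9 genes overlapped a gene on the opposite strand. Among these, the overlap covered 65.9% of the exon bases of Snrpf (with Ccdc38), 40.3% of Carns1 (with Gm17552) and 27.2% of Hopx (with Hopxos), and for Sned1 19.5% (with Mterf4), Fitm1 11.2%, Trim7 up to 6.46%, Rnf207 1.63% and Rgs6 0.768%. Carns1 also shared 29.7% of its exon bases with a transcript on its own strand. Of these partners Gm17552 was listed, at 95.5, 58 and 67.1 in the sham libraries and 22.4, 36.7 and 42.7 in the PAB libraries. The values of Snrpf and Carns1 are uncertain for this reason. Stretches of at least 100 bases at 95% identity or more were also shared with genes elsewhere by Rtn2 (267 genes, up to 168 bases), Rnf207 (6 genes), Trim7 (3 genes) and Snrpf (1 pseudogene, 258 bases).

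Promoter windows from RefSeq (GRCm38.p6), 250 bases before to 50 after the start, were matched by symbol for 34 of the 43 genes; Cacna1g, Carns1, Clec3b, Il15, Nov, Rnf207 and Tppp3 were among those without a window. Both strands were searched. The E-box CANNTG was in 28 of 34 windows (82.4%), beside 68.4% of the other listed protein-coding genes lower in PAB, 64.3% of those higher and 72.1% of all 27025 promoters. The KLF/SP box GGGCGG was in 44.1%, beside 41.1% of the others lower, 60.3% of those higher and 35.9% of all. The hypoxia response core ACGTG, which can overlap the E-box, was in 23.5% (22.2% of the others lower, 29.6% of those higher and 19.6% of all), the M-CAT box CATTCC in 17.6% (13.9%, 12.1% and 14.7%), the TATA box TATAAA in 14.7% (12%, 13.1% and 14.2%) and the nuclear receptor motif AGGTCA in 14.7% (13.3%, 12.6% and 16%). The GATA core AGATAA was in 11.8% (5.06%, 5.03% and 11.4%), and the MEF2 core TATTTTTA or TATTTATA, which can overlap the TATA box, in 2 windows, or 5.88% (2.53%, 4.52% and 4.35%). In both of these windows, those of Asb14 and Crhr2, the MEF2 core did overlap the TATA box. The estrogen-related receptor motif TCAAGGTCA, which contains the nuclear receptor motif, and the D-box TTACGTAA or TTATGTAA were in 0 of 34, beside 1.27% of the others lower for each motif, 0% and 0.503% of those higher and 0.407% and 1.07% of all. The RefSeq start lay within 100 bases of the GENCODE start of the gene in 28 of 34 and more than 1000 bases inside the gene in 2, Lrrc4b and Rgs6. A match is a description of letters and not a site of binding.

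The 250 bases before the RefSeq start are shown, 5′ to 3′ along each gene, for 3 of the genes that kept least, with E-boxes in capitals, Mylk4 (chr13:32783965-32784214 on the minus strand), Fbp2 (chr13:62858401-62858650 on the minus strand) and Ramp1 (chr1:91179572-91179821 on the plus strand). They are followed by Ucp3 (chr7:100472741-100472990 on the plus strand) with the nuclear receptor motif in capitals, and Crhr2 (chr6:55133017-55133266 on the minus strand) with the MEF2 core in capitals. The number of E-boxes in these bases was 3 in Mylk4, 3 in Fbp2 and 1 in Ramp1. In Crhr2 the letters in capitals include its TATA box. The GENCODE exons of the gene itself reached 22 bases into the window of Fbp2 and 1 base into that of Ucp3.
Mylk4: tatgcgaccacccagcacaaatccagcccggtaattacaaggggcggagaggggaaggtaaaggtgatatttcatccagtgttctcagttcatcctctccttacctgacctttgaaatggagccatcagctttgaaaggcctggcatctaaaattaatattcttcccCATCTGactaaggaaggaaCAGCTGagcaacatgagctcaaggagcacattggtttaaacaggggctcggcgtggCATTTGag
Fbp2: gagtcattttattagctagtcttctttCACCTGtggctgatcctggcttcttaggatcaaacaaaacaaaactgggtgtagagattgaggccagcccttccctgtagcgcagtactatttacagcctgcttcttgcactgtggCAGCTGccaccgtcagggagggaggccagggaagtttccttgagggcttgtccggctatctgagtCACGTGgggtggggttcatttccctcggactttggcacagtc
Ramp1: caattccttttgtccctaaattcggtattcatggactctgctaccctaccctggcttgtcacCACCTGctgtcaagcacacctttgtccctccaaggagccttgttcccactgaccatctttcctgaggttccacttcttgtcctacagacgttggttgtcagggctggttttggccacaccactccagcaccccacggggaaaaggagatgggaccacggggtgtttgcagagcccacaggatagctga
Ucp3: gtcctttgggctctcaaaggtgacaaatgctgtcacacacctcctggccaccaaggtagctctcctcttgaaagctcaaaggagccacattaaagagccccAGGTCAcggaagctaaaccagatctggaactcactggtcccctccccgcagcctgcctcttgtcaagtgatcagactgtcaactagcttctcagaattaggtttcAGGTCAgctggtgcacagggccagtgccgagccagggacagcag
Crhr2: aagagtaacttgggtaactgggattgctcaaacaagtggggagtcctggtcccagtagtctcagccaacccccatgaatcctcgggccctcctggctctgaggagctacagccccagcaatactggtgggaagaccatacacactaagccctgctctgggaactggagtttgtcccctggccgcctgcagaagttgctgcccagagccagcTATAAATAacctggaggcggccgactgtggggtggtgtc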

How the data were processed

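Values, gene symbols, biotypes and gene lengths of 617 genes in 6 RV libraries were taken from the deposited table. The authors counted reads with featureCounts; the submitters' processing notes also name HISAT2 2.0.5, StringTie 1.3.3b, GATK 3.7 and mm10. The deposited values are named FPKM, but gene length does not enter them. The deposited signal was taken to be a read count over a library's size factor. This unit is inferred from the values. Within a tolerance of 0.1, 100% of them in every library were whole multiples of a single step. At 1000 other steps the median share was 19.9% to 21.1%. The highest share at another step ranged from 57.1% (sham replicate 2) to 96.1% (sham replicate 1). The smallest values alone gave a step at which 100% of them were whole in each library except PAB replicate 3, where 20% were. In the sham libraries and PAB replicate 2 there were 81 to 96 such values, which was taken as too few. The step was therefore not accepted from the smallest values in 5 of 6 libraries, and no count test was run. The design had expected normalized values, and the test was kept. The fold changes, p-values and adjusted p-values in the table are the authors' comparison and were not used. The last listed gene has no symbol or biotype in the table used here.

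The members and lists were chosen with earlier results of these data known. Values were fitted as log2(value + 1) with limma 3.58.1 in R 4.3.3 (lmFit and eBayes with trend, two-sided, adjusted p-value threshold 0.05, minimum mean 0.1), tested on simulated data. Of the 43 genes, 2 are not reported singly here. Apart from these, per-library values are given for those of the 43 with the 12 highest sham means, the 10 lowest ratios, members of function lists, and the smallest and largest PAB spread; others were chosen after their values were seen. Shared stretches were searched with blastn 2.17.0. Other calculations used Python 3.11.15, numpy 2.4.6, pandas 2.3.3 and matplotlib 3.10.9. Alternatives were another pseudocount, filter, scaling and limits, a replicate block, and leaving out each library.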

Additional observations from a re-analysis of the deposited data

How the results depend on the processing

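Precision is limited by 3 libraries per group, and total depth is unknown. Median-ratio scaling over the listed genes, which are a selection of changed genes, raised PAB relative to sham by 0.594 log2 units. It left 9 genes past the rule instead of 43, a median log2 difference of -0.986 and a summed PAB mean at 49.5% of sham, and limma then called 188 genes lower instead of 327. A ratio limit of 0.3 gave 12 genes and of 0.5 gave 88, and a sham mean of at least 500 gave 25. Dividing each PAB library by its median over other lower genes, chosen after seeing the data, gave 20 genes lowest in PAB replicate 1 instead of 31.

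Leaving out 1 library gave 35 to 57 genes past the rule, a median log2 difference of -1.642 to -1.451 and 589 to 614 calls over the listed genes. Without PAB replicate 1, 33 of the 43 genes still passed the rule.

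With the replicate block limma called 616 genes, beside 617 without it. The deviations of same-numbered libraries correlated at -0.0593, -0.0546 and -0.199 across genes. No pairing of libraries is stated, so they were treated as unpaired.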
